A study of Macaca mulatta with 2 samples.

Results

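*KLF2*, *KLF3*, *KLF6*, *S1PR1*, *S1PR4* and *S1PR5* were followed in circulating CD4+CD8+ double-positive (DP) T cells of a rhesus monkey. The 6 genes were chosen by name, as 3 Krüppel-like factors and 3 receptors for sphingosine 1-phosphate (S1P). They and the gene lists used below were chosen with earlier results of these data known. Counts of them are therefore set beside the share of all genes as description only. Of the 35432 genes in the feature list, 5 of these 6 had a row of their own name. No feature carried the name *S1PR4*, which was not analysed here. The cells came from the peripheral blood of 1 untreated animal aged 6 years. CD4+ T cells were first taken with releasable magnetic beads, and the CD8+ cells among them were then taken with a second bead kit. An RNA library of 5′ gene expression and a library of CD4 and CD8 feature barcodes (FB, DNA tags on antibodies) were made from these cells. With 1 animal there was no biological replicate and no test between groups.

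Lymphocytes leave lymphoid organs along a gradient of S1P, which is high in blood and low in tissue. S1PR1 is the main receptor for this step in T cells, KLF2 is a transcription factor that switches on *S1PR1* in quiescent T cells, and the surface protein CD69 binds S1PR1 and removes it from the membrane. S1PR5 serves the egress of NK cells and is found on cytotoxic effector cells, where the factor T-bet (*TBX21*) promotes its expression. KLF3 acts largely as a repressor at the same CACCC-type DNA boxes that KLF2 reads, and KLF6 is a widely expressed family member that is induced early by many stimuli. S1PR4 is a further S1P receptor of leukocytes.

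In Mmul_10, the genome build of the data, *KLF2* lies on chromosome 19 from 15826626 to 15829690 (plus strand), *KLF3* on chromosome 5 from 37797507 to 37831974 (plus) and *KLF6* on chromosome 9 from 4922738 to 4931496 (minus). *S1PR1* lies on chromosome 1 from 122912933 to 122917880 (minus) and *S1PR5* on chromosome 19 from 10267543 to 10272960 (minus). These positions come from RefSeq, matched by symbol. In the feature list they are ENSMMUG00000028855 (*KLF2*), ENSMMUG00000003363 (*KLF3*), ENSMMUG00000010696 (*KLF6*), ENSMMUG00000042059 (*S1PR1*) and ENSMMUG00000008686 (*S1PR5*). Since Krüppel-like factors read CACCC boxes, the 250 bases before the annotated start were read for the 3 genes with the largest or opposed differences described here, *KLF3*, *S1PR1* and *S1PR5*. The sequences run 5′ to 3′ on the strand of the gene, and capitals mark CACCC or its reverse complement GGGTG.
KLF3 (chr5:37797257-37797506, plus): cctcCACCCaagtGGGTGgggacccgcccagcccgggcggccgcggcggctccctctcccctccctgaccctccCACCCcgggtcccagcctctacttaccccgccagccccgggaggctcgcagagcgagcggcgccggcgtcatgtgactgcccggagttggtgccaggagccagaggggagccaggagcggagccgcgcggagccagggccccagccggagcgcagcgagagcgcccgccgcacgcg
S1PR1 (chr1:122917881-122918130, minus): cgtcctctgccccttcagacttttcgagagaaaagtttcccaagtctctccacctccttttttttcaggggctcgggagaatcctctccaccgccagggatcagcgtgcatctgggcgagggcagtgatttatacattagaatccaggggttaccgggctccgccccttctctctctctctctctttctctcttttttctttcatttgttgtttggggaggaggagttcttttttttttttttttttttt
S1PR5 (chr19:10272961-10273210, minus): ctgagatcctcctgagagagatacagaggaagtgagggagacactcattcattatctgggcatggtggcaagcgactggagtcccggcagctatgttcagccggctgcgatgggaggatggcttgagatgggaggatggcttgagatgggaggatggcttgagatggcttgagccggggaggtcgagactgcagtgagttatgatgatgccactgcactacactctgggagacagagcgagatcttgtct

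The *KLF3* window held 3 such boxes, with their first bases 246, 237 and 176 bases before the start, and the second of these was on the opposite strand. The windows of *S1PR1* and *S1PR5* held 0, as did those of *KLF2* and *KLF6*, while that of *S1PR4*, whose counts were not analysed, held 5. The box is common, since 53.5% of 20782 windows of protein-coding genes held it on either strand. TCACACC, a core of sites bound by T-box factors, was in 3.60% of all windows and in 0 of the 6 members' windows. The letters of this motif and of CACCC can overlap. GC content was 77.6% in the *KLF3* window, 47.2% in that of *S1PR1* and 55.2% in that of *S1PR5*. A match is a string of letters and not a bound site, and these data hold no measure of binding.

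The deposited counts held 7923 barcodes, of which 7601 cells and 14459 genes passed the filters given in the study's methods. A *CD3E* UMI (a unique molecular identifier, counted once per captured molecule) was found in 96.2% of them. These 7311 CD3E+ cells carried 30109982 UMIs, with a median of 3655 per cell (quartiles 3000.5 and 4719). Levels are summed UMIs of a gene over all UMIs of the same cells, scaled to counts per 1000000 (CPM), with exact 95% Poisson intervals, and shares of cells have exact binomial intervals. Ratios are given as log2 of CPM, and their intervals come from how the UMIs of a gene split between both groups (exact binomial). All intervals cover counting error only. Where shares were compared, each cell was also thinned at random to 2000 UMIs, which left 6935 CD3E+ cells and dropped 376. In CD3E+ cells all 5 T cell markers were detected, at 3056 CPM in sum. Summed markers of other blood cells were at 74.6 CPM for B cells, 72.4 for NK cells, 5.61 for monocytes, 1.26 for platelets, 243 for red blood cells and 9.33 for plasmacytoid dendritic cells, with *FCN1* of monocytes and *CLEC4C* of dendritic cells at 0. Cycling genes summed to 127 CPM.

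The 3 Krüppel-like factors and *S1PR1* were detected in most CD3E+ cells, and *S1PR5* in few. *KLF2* had 12305 UMIs in CD3E+ cells, or 409 CPM (401 to 416), and a UMI in 69.6% of the cells (50.7% thinned). *KLF6* had 382 CPM (375 to 389) and a UMI in 67.6% (48.2% thinned), and *KLF3* had 263 CPM (257 to 269) and 59.2% (39.9% thinned). *S1PR1* stood at 224 CPM (219 to 229), with a UMI in 52.2% of the cells (33.0% thinned). *S1PR5* had 544 UMIs, or 18.1 CPM (16.6 to 19.7), in 6.67% of the cells (3.58% thinned). Capture differs from gene to gene, so these levels are set side by side without ranking the genes. Few molecules of each gene were captured per cell. The median was 1 UMI for each of *KLF2*, *KLF3*, *KLF6* and *S1PR1* and 0 for *S1PR5*. For *KLF2*, 3 or more UMIs were found in 24.2% of the cells, but for *S1PR5* in 0.0684%. Nearly all cells lacked a UMI of at least 1 of the 5 genes. All 5 were seen together in 1.12% of the cells, exactly 3 in 34.2% and 0 in 3.41%.

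For comparison, 86 kept cells were used that lacked every CD3 gene and had 3 UMIs or more from genes of B cells, with a median of 4121.5 UMIs. In them, B cell markers summed to 5254 CPM and monocyte markers to 108 CPM. Markers of plasmacytoid dendritic cells summed to 461 CPM, with *CLEC4C* at 0. Whether these cells held other cell types was not tested. These B gene cells had more *KLF2* (973 CPM, 878 to 1075) and *KLF6* (661, 583 to 746) than the CD3E+ cells. They had less *KLF3* (146, 111 to 189) and *S1PR1* (73.1, 49.0 to 105). A *S1PR1* UMI was found in 25.6% of them (13.9% thinned). *S1PR5* had a UMI in 0 of 86 cells, which allows a share of up to 3.49%.

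CD3E+ cells were then split by a raw UMI of each of 6 genes. *CCR7* encodes the receptor that leads naive and central memory T cells to lymph nodes, and *GZMB* the killing protease granzyme B. *CX3CR1* encodes the fractalkine receptor of cytotoxic effector cells, and *EOMES* a T-box factor of memory and cytotoxic cells. *CCR9* encodes a receptor for homing to the gut, and *TRAV10* is, in human nomenclature, the alpha chain variable gene of invariant NKT cells. There were 2163 CCR7+ cells, 3273 GZMB+, 1269 CX3CR1+, 356 EOMES+, 479 CCR9+ and 247 TRAV10+ cells. Median UMIs were 4377 in CCR7+ against 3450.5 in CCR7- cells, 3311 in GZMB+ against 4047 in GZMB- cells and 4798 in CCR9+ against 3591 in CCR9- cells. They were closer for *CX3CR1* (3422 and 3719), *EOMES* (3632.5 and 3656) and *TRAV10* (3835 and 3645). Of the 86 B gene cells, 0 had a UMI of *CX3CR1*, *EOMES* or *TRAV10*, 3 had *CCR9* and 16 had *CCR7*, which B cells also use. A *GZMB* UMI was in 8.14% of them (3.34 to 16.1), and these 7 cells held 263 *GZMB* UMIs together. A gene was counted as higher or lower where its CPM differed at least 2-fold, among 6664 genes of at least 10 CPM in CD3E+ cells other than the gate gene. All 5 members passed that minimum, but *S1PR5* did so only through its GZMB+ cells.

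**Figure D1:**
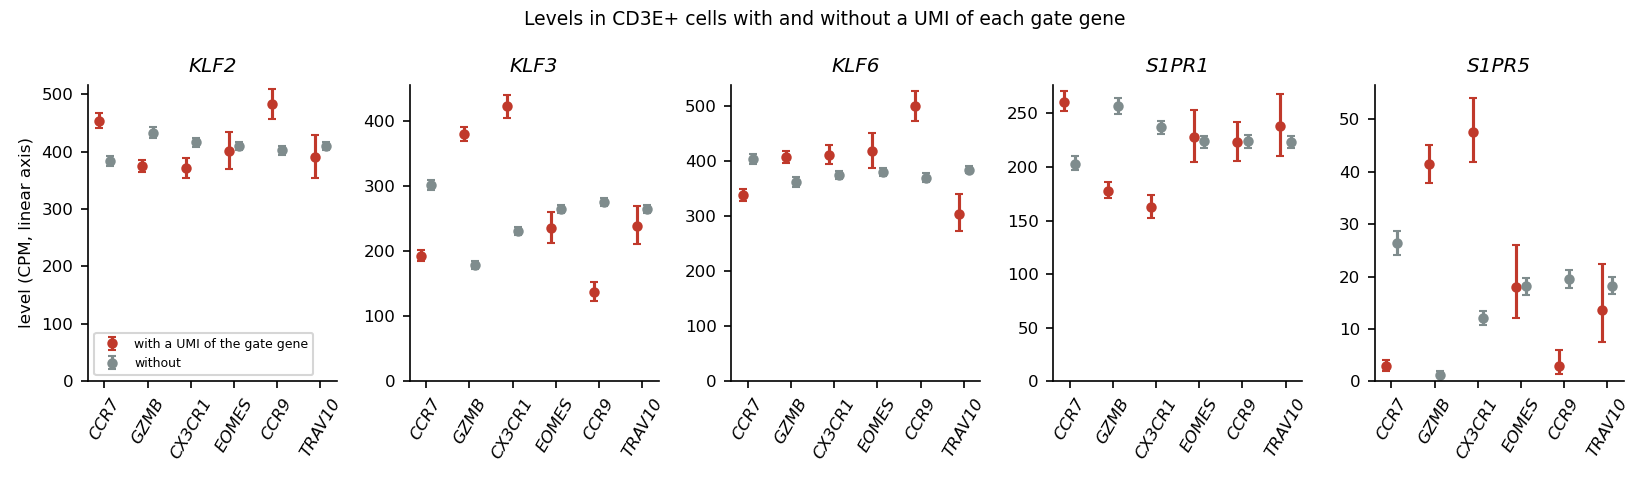
Level (CPM, linear axis from 0) of each gene in CD3E+ cells with (red) and without (grey) a UMI of the gene on the x axis, with exact 95% Poisson intervals for counting error. *S1PR5* lay at 41.4 CPM in GZMB+ and 1.26 CPM in GZMB- cells, and *S1PR1* was lower in GZMB+ (178) than in GZMB- cells (257).

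*GZMB* separated the receptors most. *S1PR5* had 522 UMIs in GZMB+ cells and 22 in GZMB- cells, or 41.4 CPM (37.9 to 45.1) and 1.26 CPM (0.788 to 1.90). The log2 ratio was 5.04 (4.43 to 5.73), the sixth highest of the 6664 genes. *S1PR1* went the other way, with 178 CPM (171 to 186) in GZMB+ and 257 CPM (249 to 264) in GZMB- cells and a log2 ratio of -0.53 (-0.60 to -0.45). *KLF3* was at 380.1 CPM (369 to 391) against 179 CPM (173 to 185), a log2 ratio of 1.09 (1.02 to 1.15). *KLF2* was slightly lower in GZMB+ cells, at 375 against 433 CPM and a log2 ratio of -0.21 (-0.26 to -0.15). *KLF6* was at 408 against 363 CPM, with a log2 ratio of 0.17 (0.12 to 0.22). The shares of thinned cells showed the same directions, with *S1PR5* in 7.68% of GZMB+ and 0.261% of GZMB- cells, *KLF3* in 52.6% and 29.6%, and *S1PR1* in 27.1% and 37.7%. *KLF6* was in 52.9% and 44.5%. For *KLF2* the thinned shares, 49.7% (47.9 to 51.5) and 51.4% (49.8 to 53.0), had overlapping intervals.

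Thus 2 of the 5 members were at least 2-fold higher in GZMB+ cells, where 5.15% of all genes were, and 0 were lower, against 2.34% of all genes. Since *S1PR5* reached the minimum level only through GZMB+ cells, the minimum favoured its call and rank. With 50 CPM required, *S1PR5* (18.1 CPM in CD3E+ cells) was not tested whatever its ratio, and *KLF3* alone was counted. The median log2 ratio of all genes was 0.23, and 0.10 without ribosomal protein and mitochondrial genes in the total. Ribosomal protein genes took 19.1% of UMIs in GZMB+ and 25.6% in GZMB- cells. Relative to it, *S1PR5* stood at 4.82, *KLF3* at 0.86, *KLF2* at -0.43 and *S1PR1* at -0.75, and *KLF6* at -0.06, on the other side of the median from its own ratio. With the smaller total, the ratio of *KLF3* was 0.96, below 2-fold, and genes higher in GZMB+ cells made up 57.5% of all genes past 2-fold in place of 68.7%. Summed NK cell markers were at 155 CPM in GZMB+ and 12.9 CPM in GZMB- cells, with *NCAM1* at 0 in GZMB+ cells, and 4 of 5 NK markers were detected. Red blood cell genes were at 94.8 and 349 CPM, and markers of dendritic cells at 15.6 and 4.80 CPM. The part of any of these in the differences was not tested.

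The differences were graded with the number of *GZMB* UMIs in a cell. In cells with 0, 1, 2 to 4, 5 to 9, 10 to 19 and 20 or more *GZMB* UMIs, *S1PR5* had 1.26, 5.77, 30.9, 36.7, 50.8 and 56.1 CPM. The largest step lay between 1 and 2 to 4 *GZMB* UMIs, and the first bin lay far below all others with 2 or more. *S1PR1* had 257, 249.9, 248, 181, 159.7 and 119 CPM in the same bins, so cells with 1 to 4 *GZMB* UMIs stood close to cells without any, and its level was lowest where *GZMB* was highest. The share of thinned cells with *S1PR1* was 37.7% in the first bin and 19.6% in the last. *KLF3* had 179, 261, 353, 405, 399 and 397 CPM and was level from 5 UMIs on. *KLF2* went from 433 CPM to between 353 and 389 CPM in the bins with *GZMB*, and *KLF6* moved between 363 and 443 CPM without an order. The bins held 4038, 321, 526, 771, 1118 and 537 cells, with median UMIs between 3148 and 4047.

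**Figure D2:**
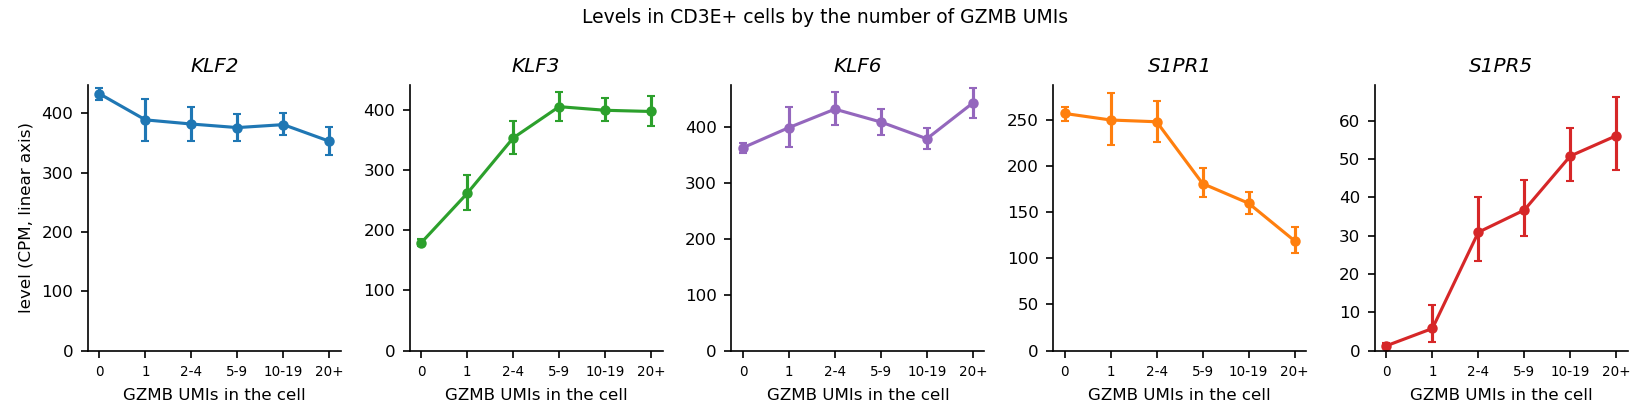
Level (CPM, linear axis from 0) of each gene in CD3E+ cells in 6 bins of their *GZMB* UMIs, with exact 95% Poisson intervals for counting error. *S1PR5* went from 1.26 to 56.1 CPM and *KLF3* from 179 to 397 CPM, while *S1PR1* went from 257 to 119 CPM.

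*CX3CR1*, carried almost only by GZMB+ cells (1232 of the 1269), placed every member on the same side as *GZMB* did, with a smaller ratio for *S1PR5* and *KLF3* and a like one for *S1PR1*. *S1PR5* had 244 UMIs in CX3CR1+ cells, or 47.6 CPM (41.8 to 54.0), and 300 UMIs in the CX3CR1- cells, between 10.7 and 13.4 CPM, a log2 ratio of 1.99 (1.74 to 2.24). *KLF3* had 422 and 230.5 CPM (0.87, 0.80 to 0.94), *S1PR1* 163 and 237 CPM (-0.54, -0.65 to -0.44), *KLF2* 371 and 416 CPM (-0.17, -0.24 to -0.10) and *KLF6* 412 and 375 CPM (0.14, 0.07 to 0.20). After thinning the ratio of *KLF2* was -0.08, and its shares of cells, 50.2% (47.4 to 53.1) and 50.7% (49.4 to 52.0), did not differ beyond counting error. *S1PR5* alone passed 2-fold, so 1 of 5 members was higher, against 2.57% of all genes, and 0 were lower, against 2.33%. The minimum level, which *S1PR5* met only through GZMB+ cells, bears on this call. With 50 CPM required *S1PR5* was not tested, and 0 of the other members were higher. The median of all genes was 0.20, above the ratio of *KLF6*. Higher genes were 52.5% of those past 2-fold, and 40.3% without ribosomal protein and mitochondrial genes in the total. NK markers summed to 164 CPM in CX3CR1+ and 53.6 CPM in CX3CR1- cells, with *NCAM1*, *NCR1* and *SH2D1B* at 0 in the former. Within GZMB+ cells, those with *CX3CR1* still had more *S1PR5* (48.5 against 36.8 CPM, log2 ratio 0.40, 0.14 to 0.65) and *KLF3* (425 against 350.5 CPM, 0.28, 0.20 to 0.36) and less *S1PR1* (161 against 189.7 CPM, -0.24, -0.36 to -0.11). For *KLF2* (-0.03, -0.11 to 0.06) and *KLF6* (0.03, -0.05 to 0.11) the interval included 0.

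CCR7+ cells had more *KLF2* and *S1PR1* and far less *S1PR5*. *KLF2* was at 454 CPM (441 to 467) in CCR7+ and 384 CPM (375 to 393) in CCR7- cells, a log2 ratio of 0.24 (0.19 to 0.30). *S1PR1* was at 261 CPM (252 to 271) against 203 CPM (197 to 209.8), a ratio of 0.36 (0.29 to 0.43). *S1PR5* had 31 UMIs in CCR7+ cells, or 2.91 CPM, and 513 in CCR7- cells, or 26.4 CPM, a ratio of -3.18 (-3.75 to -2.66) that was the fourth lowest of the 6664 genes. *KLF3* was at 193 against 302 CPM (-0.65, -0.72 to -0.57) and *KLF6* at 339 against 405 CPM (-0.26, -0.32 to -0.20). Only *S1PR5* passed 2-fold. That makes 1 of 5 members lower, against 3.50% of all genes, and 0 higher, against 1.11%. *S1PR5* reached the minimum level only through GZMB+ cells, most of them without *CCR7*, so the minimum favoured its call and rank. With 50 CPM required *S1PR5* was not tested, and 0 of the other members were lower, against 4.16% of all genes. The median of all genes was -0.18, which leaves *KLF6* at -0.08 relative to it, *KLF2* at 0.42 and *S1PR1* at 0.54. In cells with 1, 2 and 3 or more *CCR7* UMIs, *S1PR1* had 258, 283 and 248 CPM and *KLF2* 447, 469.7 and 452 CPM, with no grading beyond the first UMI. B cell markers summed to 130.2 CPM in CCR7+ and 44.2 CPM in CCR7- cells. Without the cells that carried any such UMI, the ratios were 0.23 for *KLF2*, 0.41 for *S1PR1*, -3.40 for *S1PR5*, -0.67 for *KLF3* and -0.35 for *KLF6*.

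Most GZMB+ cells lacked *CCR7*, so the split was repeated on each side of *GZMB*. Among GZMB- cells, *KLF3* was at 178 CPM in the 1898 CCR7+ cells and 179.7 CPM in the 2140 CCR7- cells, a log2 ratio of -0.01 (-0.12 to 0.09). The difference in *KLF3* seen over all cells was therefore not detectable there. *KLF2* kept a ratio of 0.18 (0.11 to 0.24), *S1PR1* of 0.14 (0.06 to 0.23) and *KLF6* of -0.36 (-0.43 to -0.29). *S1PR5* had 5 and 17 UMIs. Among GZMB+ cells the difference in *KLF3* was present, at 263 CPM with *CCR7* and 400.2 CPM without (-0.61, -0.75 to -0.47), and *KLF6* was on the other side, at 438 against 403 CPM (0.12, 0.01 to 0.23). The 265 GZMB+ cells with a *CCR7* UMI had 224 CPM of *S1PR1* against 171 CPM in GZMB+CCR7- cells (0.39, 0.23 to 0.55) and 14.1 against 46.1 CPM of *S1PR5* (-1.71, -2.34 to -1.14). Their median was 6609 UMIs against 3262, and doublets were not separated from them.

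**Figure D3:**
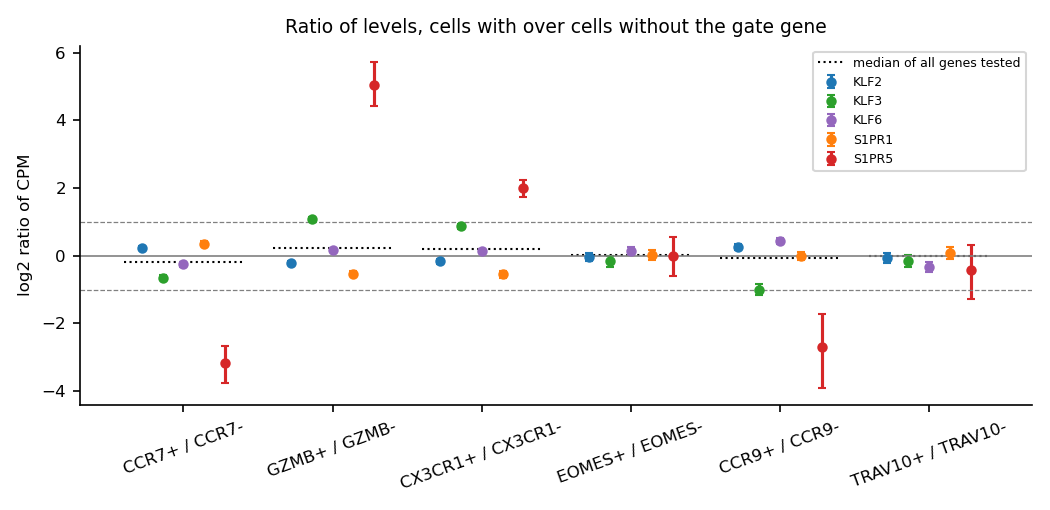
Log2 ratio of CPM in CD3E+ cells with over cells without a UMI of each gate gene, with exact 95% intervals for counting error, dashed lines at 2-fold and dotted lines at the median of all genes tested. *S1PR5* stood farthest from 0 for *GZMB* (5.04), *CCR7* (-3.18), *CCR9* (-2.70) and *CX3CR1* (1.99), and no member passed 2-fold for *EOMES* or *TRAV10*.

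Of the cells with each of the 6 genes, CCR9+ cells had the most *KLF6* and the least *KLF3*. *KLF6* was at 499.7 CPM (473 to 527) in CCR9+ and 370.3 CPM (363 to 378) in CCR9- cells, a log2 ratio of 0.43 (0.35 to 0.51). *KLF3* was at 137 CPM (124 to 152) against 275 CPM (269 to 281), 0.499 times as much (0.448 to 0.554), which only just reached 2-fold. *KLF2* was at 482 against 402 CPM (0.26, 0.18 to 0.35). After thinning it was at 508 against 404 CPM, but its shares of cells overlapped (54.0%, 49.3 to 58.7, and 50.4%, 49.2 to 51.6). *S1PR1* did not differ beyond counting error over all cells, at 223 and 224 CPM (0.00, -0.13 to 0.12). *S1PR5* had 8 UMIs in CCR9+ cells, or 3.01 CPM, against 19.5 CPM (-2.70, -3.92 to -1.71). *KLF3* and *S1PR5* made 2 of 5 members lower, against 2.91% of all genes, and 0 were higher, against 0.630%. Since *S1PR5* met the minimum level only through GZMB+ cells, the minimum favoured its call. With 50 CPM required *S1PR5* was not tested, and *KLF3* alone was counted. Among GZMB- cells alone, *KLF6* was at 498 against 344 CPM (0.54, 0.44 to 0.63), *KLF3* at 123 against 187 CPM (-0.60, -0.78 to -0.42) and *S1PR1* at 223 against 262 CPM (-0.23, -0.37 to -0.10), while *S1PR5* had 0 and 22 UMIs. The median of all genes was -0.08. B cell markers summed to 149 CPM in CCR9+ and 67.4 CPM in CCR9- cells. Without cells that carried such a UMI, the log2 ratios of *KLF6* and *KLF3* were 0.38 and -1.12.

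Over the whole population EOMES+ and EOMES- cells differed little, and beyond counting error only in *KLF3* and *KLF6*. The ratios of *S1PR5* and *KLF3* were not the same with and without *GZMB*. The pooled log2 ratios were -0.03 (-0.15 to 0.09) for *KLF2*, -0.17 (-0.33 to -0.02) for *KLF3*, 0.14 (0.02 to 0.25) for *KLF6*, 0.03 (-0.13 to 0.18) for *S1PR1* and -0.01 (-0.61 to 0.54) for *S1PR5*. The median of all genes was 0.03. None of the 5 members passed 2-fold, and 0.630% of all genes were higher and 0.900% lower. Among GZMB- cells, *S1PR5* had 8 UMIs in 207 EOMES+ cells, or 9.75 CPM, and 14 UMIs in 3831 EOMES- cells, or 0.839 CPM, a log2 ratio of 3.54 (2.08 to 4.89). Among GZMB+ cells, it was at 27.1 CPM in 149 EOMES+ cells and 42.3 CPM in the others, a ratio of -0.64 (-1.36 to 0.00). *KLF3* likewise had a ratio of 0.18 (-0.06 to 0.41) without *GZMB* and -0.50 (-0.71 to -0.30) with it. The value of *S1PR5* in EOMES+GZMB- cells rests on very few UMIs. B cell markers summed to 145 CPM in EOMES+ and 70.8 CPM in EOMES- cells, and NK markers to 103 and 70.8 CPM.

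TRAV10+ cells differed from the others mainly in *KLF6*. It was at 305 CPM in TRAV10+ and 385 CPM in TRAV10- cells, a log2 ratio of -0.33 (-0.49 to -0.18), and was lower both without *GZMB* (276 against 366 CPM, -0.41, -0.65 to -0.18) and with it (336 against 411 CPM, -0.29, -0.51 to -0.08). The pooled intervals of *KLF2* (-0.07, -0.21 to 0.07), *KLF3* (-0.15, -0.33 to 0.03), *S1PR1* (0.09, -0.09 to 0.27) and *S1PR5* (-0.43, -1.28 to 0.31) included 0. Within GZMB+ cells, 117 TRAV10+ cells had more *S1PR1* (234 against 176 CPM, 0.41, 0.15 to 0.67) and less *KLF3* (294 against 384 CPM, -0.39, -0.62 to -0.16). All 15 *S1PR5* UMIs of TRAV10+ cells lay in these 117 cells, and 0 in the 130 without *GZMB*. No member passed 2-fold, against 0.375% of all genes higher and 1.77% lower, and the median was -0.02. NK markers summed to 96.7 CPM in TRAV10+ and 71.5 CPM in TRAV10- cells. In TRAV10+ cells all of that sum came from *KLRF1*, while the other 4 of 5 were at 0, *NCAM1* and *NCR1* included.

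To order the levels without overlap, 8 groups that share no cell were formed: cells with none of the 6 genes, with 1 gene alone, and with *GZMB* and *CX3CR1* only. The group with *CX3CR1* alone held only 28 cells, so its levels are imprecise for every gene. *S1PR5* was highest with *GZMB* and *CX3CR1* only (53.8 CPM), then with *GZMB* alone (43.6). It was at 22.3 CPM with *CX3CR1* alone and 11.5 with *EOMES* alone, from 2 and 4 UMIs. It was at 1.64 CPM with none of the 6 and had 1 UMI in the 1585 cells with *CCR7* alone. It had 0 UMIs in the 231 cells with *CCR9* alone and the 79 with *TRAV10* alone, which allows a share of cells with a *S1PR5* UMI of up to 1.30% and 3.80%. Neighbours in this order differed beyond counting error between the first and second group, between *EOMES* alone and none, and between none and *CCR7* alone. *S1PR1* was lowest where *S1PR5* was highest, but the rest of its order was not the reverse. *EOMES* alone (284 CPM) and *CCR7* alone (274) did not differ beyond counting error, *CCR7* alone lay above none (249), and *TRAV10* alone (244), *CCR9* alone (209), *CX3CR1* alone (178) and *GZMB* alone (178) followed without a step beyond counting error. Cells with *GZMB* and *CX3CR1* only were lowest, at 148 CPM, below *GZMB* alone.

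Among the Krüppel-like factors, *KLF3* was highest with *GZMB* and *CX3CR1* only (454 CPM), above *GZMB* alone (385). It then stood at 323 CPM with *CX3CR1* alone, 206 with *EOMES* alone, 188 with *TRAV10* alone and with none, and 182 with *CCR7* alone, and these neighbours did not differ beyond counting error. *CCR9* alone was lowest, at 113 CPM, below *CCR7* alone. *KLF6* stood apart with *CCR9* alone, at 542 CPM. It was between 357 and 408 CPM in the 5 groups that followed, then at 293 CPM with *CCR7* alone and 279 with *TRAV10* alone, and no neighbours below *CCR9* alone differed beyond counting error. Groups further apart in the order did, since the small groups between them have wide intervals: *KLF6* was lower with *CCR7* alone than with none (293, 281 to 306, against 396, 381 to 411), and *S1PR1* lower with *GZMB* alone than with none (178, 167 to 189, against 249, 238 to 262). *KLF2* spanned least, from 473 CPM with *CCR9* alone and 454 with *CCR7* alone, which did not differ, to 289.8 with *CX3CR1* alone. That lowest value rests on 26 UMIs in 28 cells (189 to 425), and the next lowest was 360.4 CPM with *GZMB* and *CX3CR1* only. Only the step from *CCR7* alone to none (399 CPM) exceeded counting error.

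**Figure D4:**
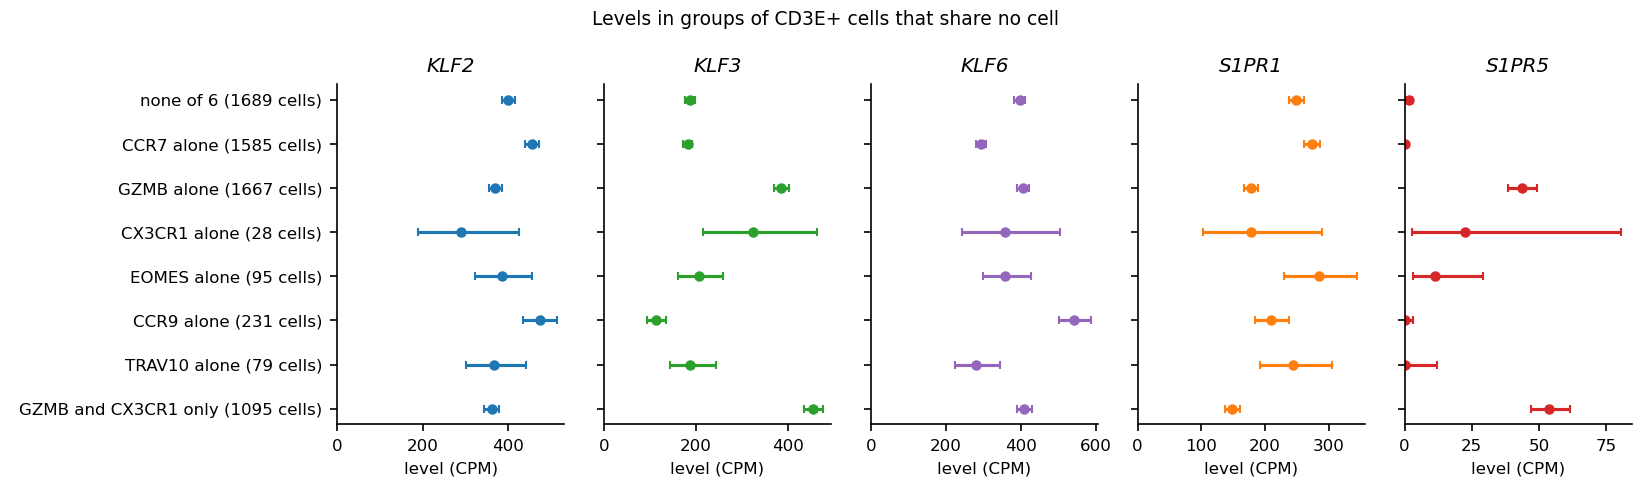
Level (CPM, linear axes from 0) of each gene in 8 groups of CD3E+ cells that share no cell, defined by which of the 6 gate genes had a UMI, with exact 95% Poisson intervals for counting error. *S1PR5* was above 40 CPM only in the groups with *GZMB* (43.6 and 53.8), and *KLF6* was highest with *CCR9* alone (542).

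The genes whose pattern over these 8 groups was most like each member were found from log2(CPM + 10) among 6175 named genes. For *S1PR1* these were *CD28*, the costimulatory receptor (r = 0.982), *GPR183*, an oxysterol receptor that guides lymphocytes (0.973), and *DUSP2*, a phosphatase (0.962). For *S1PR5* they were *ACTB* (0.989), *DRAP1* (0.986) and *MYH9* (0.984), and for *KLF3* *NDUFS3* (0.985), *FLNA* (0.980) and *ADD1* (0.975). For *KLF2* they were *RCC1* (0.968), *R3HDM4* (0.965) and *HMGN3* (0.960), and for *KLF6* *CD81* (0.927), *TIMM10* (0.924) and *ESYT1* (0.891). These describe 8 groups of 1 library, which share depth and composition, and the best of 6175 genes will be close over so few points.

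Co-detection in the same cell was read after thinning, since deep cells show more of every gene. *KLF2* and *S1PR1* were found together in 38.3% of CD3E+ cells (37.2 to 39.4) and in 17.0% after thinning, where the product of their separate shares was 16.7%. *S1PR1* was detected in 33.6% of thinned cells with *KLF2* (32.0 to 35.1) and 32.4% without (30.8 to 34.0), which was within counting error. The same held within GZMB- cells (38.8% and 36.6%) and within GZMB+ cells (26.8% and 27.4%). *KLF6* was found more often with *KLF2* (50.9%, 49.3 to 52.6) than without it (45.4%, 43.8 to 47.1). This was so in GZMB+ cells too (55.9%, 53.4 to 58.4, against 49.8%, 47.3 to 52.4) and in GZMB- cells (47.0%, 44.8 to 49.3, against 41.8%, 39.5 to 44.0). *KLF6* was also more frequent in cells with *KLF3* (51.1%, 49.3 to 53.0) than without (46.3%, 44.8 to 47.8), but within GZMB+ cells the intervals overlapped (53.9% and 51.7%).

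In percentage points, the shares of cells with *S1PR5* lay closer with and without *KLF3* within GZMB+ cells than over all cells. With and without *S1PR1* they lay about as far apart within GZMB+ cells as over all cells. *S1PR5* itself was in 7.68% of thinned GZMB+ cells and 3.58% of all thinned cells. A like gap in percentage points is therefore a smaller relative difference within GZMB+ cells. Intervals are wider within GZMB+ cells, so an overlap there does not show a smaller difference. *S1PR5* was detected in 62 of 2287 thinned cells with *S1PR1* (2.71%, 2.08 to 3.46) and in 186 cells without it (interval 3.46 to 4.61%). Within GZMB+ cells the shares were 6.79% (5.18 to 8.70) and 8.01% (6.93 to 9.21), in the same direction but with intervals that overlap. The receptors were found together in 1.84% of GZMB+ cells (1.40 to 2.38), and the product of their separate shares was 2.08%. Over all CD3E+ cells both receptors had a UMI in 2.83% of unthinned cells. *S1PR5* was in 5.13% (4.34 to 6.02) of cells with *KLF3* and 2.54% (2.09 to 3.07) of cells without. Within GZMB+ cells it was in 8.58% (7.27 to 10.0) and 6.68% (5.45 to 8.08). The direction was kept there, though these intervals overlap, which does not show that no difference remains. *S1PR1* was less frequent in cells with *KLF3* (30.4%, 28.6 to 32.1) than without (34.7%, 33.3 to 36.2). Within GZMB- cells it was at 37.7% in both, and within GZMB+ cells at 25.3% (23.2 to 27.4) and 29.2% (26.8 to 31.6).

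*CD69* mRNA, whose protein removes S1PR1 from the surface, was set beside the members in thinned CD3E+ cells, where *S1PR1* did not differ with it beyond counting error. In cells with 0, 1 and 2 or more *CD69* UMIs, *S1PR1* had 217, 224 and 216 CPM and *KLF2* 407, 413 and 415 CPM. *KLF6* was graded with *CD69*, at 339 CPM (324 to 354), 381 CPM (363 to 399.7) and 438 CPM (417 to 459.6). *KLF3* had 263, 303 and 288 CPM and *S1PR5* 16.4, 21.4 and 19.9 CPM.

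The surface tags were compared in 4 bins of CD3E+ cells cut at the quartiles of tag UMIs. From the lowest to the highest bin of CD4 FB, *S1PR5* had 39.6, 23.2, 9.24 and 9.21 CPM, *KLF3* had 381, 293, 216 and 213 CPM, and *S1PR1* had 191, 216, 244 and 232 CPM. *KLF2* (439, 401, 399 and 404 CPM) and *KLF6* (399, 351, 379 and 394 CPM) moved less. GZMB+ cells made up 68.7% of the lowest bin and 30.6% of the highest, and the median UMIs of the bins went from 3065 to 4871.5. Within GZMB+ cells the log2 ratio of the highest to the lowest bin was still -1.21 (-1.58 to -0.84) for *S1PR5*, -0.65 (-0.76 to -0.54) for *KLF3* and 0.45 (0.29 to 0.61) for *S1PR1*. Within GZMB- cells it was -0.43 (-0.59 to -0.27) for *KLF3* and -0.14 (-0.28 to 0.01) for *S1PR1*. For *S1PR5* it was -2.23 (-4.03 to -0.51) there, from only 6 UMIs in the highest and 8 in the lowest bin. For *KLF6* it was 0.23 (0.10 to 0.36) within GZMB- and -0.10 (-0.20 to 0.01) within GZMB+ cells. The CD8 FB separated the receptors little. From its lowest to its highest bin *S1PR5* stayed between 14.8 and 22.9 CPM, while *S1PR1* had 231, 210.4, 227 and 227 CPM. *KLF3* was lower in the highest than in the lowest bin (log2 ratio -0.33, -0.42 to -0.24). The median CD4 FB was 90 UMIs in the B gene cells and 387 in CD3E+ cells, and the lowest CD4 bin reached up to 290 UMIs, so it overlaps the background of that tag. For the CD8 FB these medians were 139.5 and 342 UMIs. Its lowest bin ran from 12 to 193 UMIs and overlaps the background too.

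**Figure D5:**
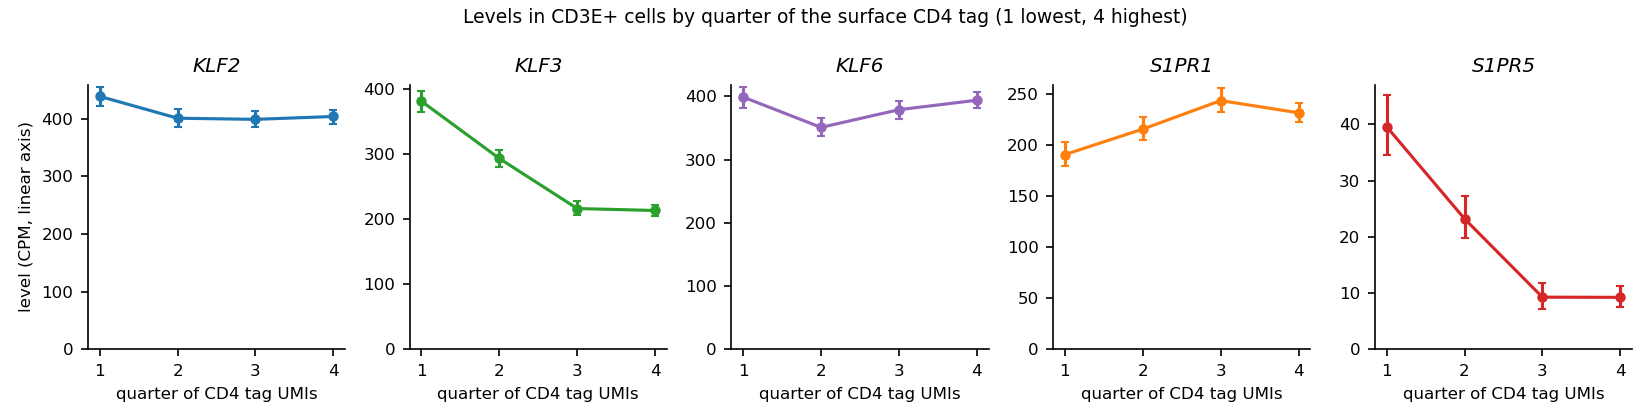
Level (CPM, linear axis from 0) of each gene in CD3E+ cells in 4 bins cut at the quartiles of their CD4 FB UMIs (1 lowest, 4 highest), with exact 95% Poisson intervals for counting error. *S1PR5* went from 39.6 to 9.21 CPM and *KLF3* from 381 to 213 CPM, and *S1PR1* was lowest in the lowest bin (191 CPM).

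Other genes of S1P signalling were taken from a list of 17, of which 10 had at least 10 CPM. The receptors *S1PR2* and *S1PR3* and most enzymes and transporters of S1P did not reach it. In GZMB+ cells, 1 of the 10 was at least 2-fold higher and 0 lower, with a median log2 ratio of 0.39, where all genes gave 5.15%, 2.34% and 0.23. The highest were *GNA13*, the G protein subunit of inhibitory S1P receptors (1.27), and *RAC2*, a GTPase of migration (0.95), and the lowest were *CD69* (0.06) and *ARHGEF1* (0.13). In CCR7+ cells 0 of 10 passed 2-fold (1.11% of all genes higher and 3.50% lower), with *GNA13* (-0.98) and *RAC2* (-0.72) lowest and *CD69* (0.10) and *ARHGEF1* (0.03) highest. None of the 10 passed in the 4 other comparisons, where 0.375% to 2.57% of all genes were higher and 0.900% to 2.91% lower. Of 14 other Krüppel-like factors, 5 were tested and none passed in any of the 6 comparisons. In these, at most 5.15% of all genes were higher and 3.50% lower. In GZMB+ cells *KLF9* (-0.84) and *KLF8* (-0.78) were lowest and *KLF10* (0.74) and *KLF12* (0.64) highest.

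Of 8 genes taken as regulators and textbook targets of KLF2, 7 were tested in GZMB+ cells and 2 were at least 2-fold lower, with 0 higher and a median of -0.54 (2.34% and 5.15% of all genes, median 0.23). The lowest were *CCR7* (-2.43) and *IL6R*, a cytokine receptor gene (-2.18), and the highest *CXCR3* (0.15) and *FOXO1* (-0.36), which encodes the factor that drives *KLF2*. In CCR7+ cells 1 of 6 was higher, *IL6R* (1.58), and 0 lower (1.11% and 3.50% of all genes). In CCR9+ cells, where *KLF2* itself was at 482 CPM, 0 of 7 passed 2-fold, with *ITGB7* (0.56) and *IL7R* (0.51) highest. That count is near the share of all genes (0.630% higher and 2.91% lower). The list of *S1PR5* partners holds cytotoxic effector genes, *GZMB* and *CX3CR1* among them, so its direction here was set by its choice and it is no evidence on *S1PR5*. All 5 tested were at least 2-fold higher in GZMB+ cells (5.15% of all genes), from *PRF1* (2.90) and *TBX21* (3.02) to *FGFBP2* (5.17) and *CX3CR1* (5.83). All 6 were lower in CCR7+ cells (median -3.03, 3.50% of all genes) and in CCR9+ cells (median -2.82, 2.91% of all genes), *GZMB* among them. In EOMES+ cells *TBX21* alone was lower (-1.07, 0.900% of all genes).

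For the lists that follow, the shares of all genes higher and lower were 5.15% and 2.34% in GZMB+ cells, 1.11% and 3.50% in CCR7+ cells and 0.630% and 2.91% in CCR9+ cells. Of 10 tested genes of recirculation and homing, 2 were at least 2-fold higher in GZMB+ cells, the LFA-1 integrin chains *ITGB2* (1.75) and *ITGAL* (1.41), and 2 lower, *CCR6* (-2.30) and *PECAM1* (-2.13). In CCR7+ cells 2 were higher and 2 lower, and in CCR9+ cells 1 higher (*CCR6*, 1.11) and 3 lower. Of 9 tested genes of tissue retention, 3 were higher in GZMB+ cells, with *PDCD1* (2.17) and *PRDM1* (1.54) highest, and 1 lower, the integrin gene *ITGA1* (-1.87). In CCR9+ cells *ITGA1* was higher (1.82) and *PDCD1* lower (-1.73). Of 12 tested immediate-early genes, 3 were higher in CCR7+ cells, with *NR4A1* (2.16) and *DUSP2* (1.64) highest, and in GZMB+ cells 1 was higher (*NR4A1*, 1.53) and 1 lower (*MYC*, -1.26). The 14 detected immediate-early genes summed to 7734 CPM in CCR7+ against 6022 in CCR7- cells and to 5532 CPM in GZMB+ against 7416 in GZMB- cells. In CX3CR1+ cells (5082 against 6945 CPM) and CCR9+ cells (7170.1 against 6575) *KLF2* was also on the same side as this sum. In EOMES+ (7026 against 6606) and TRAV10+ cells (7522 against 6593) the sum was higher while the interval of *KLF2* included 0. *S1PR1* was likewise on the side of the sum for *CCR7*, *GZMB* and *CX3CR1*. *KLF6* was on the other side for these and for *TRAV10*, and on the same side for *EOMES* and *CCR9*. Whether handling of the cells had a part in any of these was not tested.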

How the data were processed

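CD4+CD8+ T cells from the blood of 1 animal were sequenced as a library of 5′ gene expression and a library of feature barcodes. The authors deposited raw UMI counts per gene, tag and barcode, and the submitters' processing notes name Cell Ranger 3.1.0, STAR 2.5.1b, Seurat 3.1.3 and the build Mmul_10. No source used here gives the annotation release. The study's filters were applied: a gene had to be seen in 3 cells, and a cell needed between 200 and 4000 genes and no more than 20% of its UMIs from mitochondria. That left 7601 of 7923 barcodes, with 2 unnamed mitochondrial features included in the share. Doublets were not called, and an alternative left out the 5% of cells with most UMIs.

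CPM, shares and exact intervals (95%) were computed with Python 3.11.15, numpy 2.4.6, scipy 1.17.1 and pandas 2.3.3, and checked on simulated counts. An upper limit for a share of 0 used 3 counts. With 1 animal, no test was made and no p-value is given, and a 2-fold difference is a fixed size. Named genes were the members, the gate genes, the 2 highest and 2 lowest genes of each list in a comparison, and the 3 genes most alike to each member. In the lists, 1 gene is not reported here. The members and lists were chosen with earlier results of these data known.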

Additional observations from a re-analysis of the deposited data

Results flagged for a closer look

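The 275 barcodes left out for their mitochondrial share alone also held the members, above the 3.37 CPM that a count of 0 would allow there. *KLF2* was at 332 CPM (295 to 372, from 296 UMIs) in them and 409 CPM in CD3E+ cells. *KLF3* was at 214 CPM (185 to 247, 191 UMIs) against 263, and *KLF6* at 496 CPM (451 to 544, 442 UMIs) against 382. *S1PR1* was at 241 CPM (210.1 to 276, 215 UMIs) against 224, and *S1PR5* at 13.5 CPM (6.96 to 23.5, 12 UMIs) against 18.1. Their median was 2401 UMIs, against 3655 in CD3E+ cells. These barcodes were not required to hold a *CD3E* UMI. The total behind CPM includes mitochondrial UMIs, so the high mitochondrial share by which they were chosen lowers the CPM of every other gene. The levels therefore show that the members were present, and their differences from CD3E+ cells are not read as differences in expression.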

How the results depend on the processing

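Of 442 log2 ratios of single members under other settings, 346 stayed within the interval of the reported ratio, 91 left it without a reversal and 5 reversed. Only ratios whose interval excluded 0 were counted as reversed. Others also crossed 0, such as *S1PR5* in EOMES+ cells (-0.01, and 3.54 within GZMB- cells). Those 5 were *KLF6* in cells with *CX3CR1* alone against cells with none of the 6 genes (-0.15), *KLF6* in cells with *EOMES* alone (-0.14), and *KLF3* in EOMES+ cells at 2 or more UMIs (0.00), with *EOMES* alone (0.14) and within GZMB- cells (0.18). Counts of members past 2-fold were the same in 184 cases and not in 18. Lower in CCR7+ cells was 1, and 0 with 50 CPM added or required. Higher in GZMB+ cells were 2, 1 without ribosomal protein and mitochondrial genes in the total, 1 with 50 CPM required and 0 with 50 CPM added. Higher in CX3CR1+ cells was 1, and 0 with 50 CPM added or required. Higher in EOMES+ cells was 0, and 1 with *EOMES* alone or within GZMB- cells. Lower in CCR9+ cells were 2, 1 at a mitochondrial limit of 10%, without the *CD3E* gate, at 2 or more *CCR9* UMIs, without ribosomal and mitochondrial genes, with 10 CPM added or with 50 CPM required, and 0 with *CCR9* alone, with 50 CPM added or within GZMB- cells. Since *KLF3* stood at 2-fold in CCR9+ cells, small shifts end its call. The ratio of *S1PR5* in GZMB+ cells ran from 0.83 (50 CPM added) to 5.22, and was 2.19 with 10 CPM added. At 18.1 CPM in CD3E+ cells, *S1PR5* is not tested where 50 CPM is required. Adding 50 CPM, more than its 41.4 CPM in GZMB+ cells, shrinks its ratio by arithmetic. Neither of these settings therefore tests its difference. *KLF2* and *S1PR1* together were in 38.3% of cells, 17.0% thinned to 2000 UMIs, 12.1% at 2 or more UMIs of each and 36.1% without the 5% of cells with most UMIs. The settings within GZMB- cells and without cells with a B cell marker UMI were chosen after seeing the data.

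The share of genes past 2-fold depended on the minimum level. With none, higher and lower genes were 8.31% and 7.29% for *CCR7*, 10.4% and 9.30% for *GZMB*, 8.19% and 6.87% for *CX3CR1*, 8.55% and 3.39% for *EOMES*, 9.10% and 4.98% for *CCR9* and 6.00% and 4.10% for *TRAV10*. With 50 CPM required, higher genes were 0.543% for *CCR7*, 0.136% for *CCR9* and 0.226% for *TRAV10*, and lower genes 1.54% for *GZMB*, 1.31% for *CX3CR1*, 0.317% for *EOMES* and 0.769% for *TRAV10*. No ratio was formed for *S1PR5* with *CCR9* alone or *TRAV10* alone (0 UMIs against 11) or for TRAV10+ cells within GZMB- cells (0 against 22). With 1 animal, counting error is the only error measured, and *S1PR5* limits most values outside GZMB+ cells. No paired analysis was possible because both libraries of the series come from the cells of 1 animal and no result comes from a test.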
